A study of Homo sapiens with 60 samples.

Results

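A set of 7 genes of the fibroblast growth factor (FGF) system was followed through EGFR inhibition and drug removal: the receptors FGFR1, FGFR2, FGFR3 and FGFR4, the ligands FGF1 and FGF2, and FGFBP1, a secreted carrier of FGF ligands. These 7 genes were taken by name, and all 7 were found among the 19712 genes of both deposited tables. RNA-seq had been done on PC9, HCC827, NCI-H1975 (H1975 from here on) and HCC2935, which are established lung cancer cell lines carrying mutant EGFR, with 3 libraries in each of 20 groups, 60 in all. Osimertinib, an irreversible inhibitor of mutant EGFR, was used at 500 nM throughout. The DMSO arm was parental cells given vehicle for 24 h, and the acute arm was parental cells given the drug for 24 h. Both followed 21 days in medium without drug. Drug-tolerant persisters (DTPs) were the cells left after 21 days of drug. In the short washout, DTPs then spent 24 h in drug-free medium, and in the long washout they spent 7 days in PC9, 4 days in HCC827, 3 days in H1975 and 10 days in HCC2935. The lines carry no engineered change according to the labels, and the 3 libraries of a group are called biological triplicates without saying how the cultures were kept apart, so p-values measure the spread between such libraries.

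FGF receptors are tyrosine kinases that dimerise when an FGF ligand and heparan sulfate bind together, and they pass the signal through the adaptor FRS2 to the RAS-ERK and PI3K pathways. The same pathways run downstream of EGFR, which is why FGF signalling has long been studied as a bypass route in lung cancers treated with EGFR inhibitors. FGF1 and FGF2 leave the cell without a classical signal peptide, and FGFBP1 releases stored FGF from the matrix. FGF1 can engage all 4 receptors, and FGF2 is bound best by the mesenchymal splice forms of FGFR1, FGFR2 and FGFR3. Gene-level values such as these do not separate splice forms.

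In GENCODE v29 (GRCh38), FGFR3 lies on chr4:1793293-1808872 (+ strand), FGFBP1 on chr4:15935569-15938740 (−) and FGF2 on chr4:122826708-122898236 (+). FGF1 lies on chr5:142592178-142698070 (−), FGFR4 on chr5:177086886-177098144 (+) and FGFR2 on chr10:121478334-121598458 (−). FGFR2, FGFR3, FGFR4 and FGFBP1 overlap no other annotated gene. FGFR1 overlaps LETM2 on the opposite strand, FGF2 overlaps NUDT6 and FGF1 overlaps SPRY4-AS1, so reads of these 3 members could be shared with a partner if the counting did not use strand, which is not given in the sources used here. FGFR3 has 3 annotated pseudogenes that bear its name (FGFR3P1, FGFR3P5 and FGFR3P6).

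The promoters of FGFR3 and FGFBP1 are shown because these genes gave the most widely shared differences from DMSO, in opposite directions. Each run is the 250 bases before the RefSeq start (GRCh38.p14), 5′ to 3′ on the strand of the gene, with CpG dinucleotides in capitals. The FGFR3 run is chr4:1793043-1793292 (+) and the FGFBP1 run is chr4:15938741-15938990 (−).
FGFR3: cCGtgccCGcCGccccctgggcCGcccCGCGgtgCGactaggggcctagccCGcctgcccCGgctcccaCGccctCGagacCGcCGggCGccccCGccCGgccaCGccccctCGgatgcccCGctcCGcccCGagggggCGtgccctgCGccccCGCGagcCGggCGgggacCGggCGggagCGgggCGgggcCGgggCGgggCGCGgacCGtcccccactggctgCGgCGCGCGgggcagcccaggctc
FGFBP1: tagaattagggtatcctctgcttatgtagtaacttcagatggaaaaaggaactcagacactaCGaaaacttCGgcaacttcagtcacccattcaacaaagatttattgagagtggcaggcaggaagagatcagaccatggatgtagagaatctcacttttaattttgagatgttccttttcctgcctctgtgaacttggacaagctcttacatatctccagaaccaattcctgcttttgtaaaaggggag
The FGFR3 run held 40 CpG and 86.8% G or C, and 2.16% of the 35116 promoters in the RefSeq table had as many CpG or more. The FGFBP1 run held 2 CpG and 40.8% G or C, and 22.9% of promoters had as few or fewer. Short words were searched on both strands, the first being TGACTCA, which is an AP-1 word. GTAAACA was searched as the FOXO word. The TEAD word was GGAATG. No word contains another. None of the 3 words was in either run. They were in 4.2%, 2.98% and 11.9% of all promoters. Of the 14 promoters of the 6 members searched (FGFR1 was left out), 1 held the AP-1 word (FGF1), 3 held the TEAD word (1 of FGF1 and 2 of FGFR2) and 0 held the FOXO word.

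The deposited estimated counts summed to 17.7 to 25.6 M per library in HCC827 and HCC2935 and to 34.7 to 49.1 M in PC9 and H1975, so a gene at a given level rested on fewer counts in HCC827 and HCC2935. Precision did not simply follow depth. For FGF1 the standard error of the acute log2 difference was 0.64 in PC9 and 0.48 in H1975, against 0.45 in HCC827 and 0.54 in HCC2935. Levels are given in TPM, the usual share of transcripts scaled for transcript length and library size, which allows genes to be compared. Over all genes, PC9 long washout replicate 3 stood apart from its group and was nearer to the PC9 short washout, and PC9 long washout differences that turned on it are therefore given with and without it. In HCC827 and H1975 the DTP, short washout and long washout libraries were not separated by arm, since 8 and 5 of the 15 libraries were nearer to another arm than to their own. The sum of 12 proliferation genes in H1975 was 473 to 645 TPM in the long washout against 928 to 1406 TPM in the short washout and 2023 to 2256 TPM in DMSO, although the long washout was described as lasting until growth resumed. Of 10 epithelial markers, 9 or 10 averaged at least 1 TPM in every group. Their levels were not constant. By edgeR, 70% were called lower in DTPs than in DMSO in HCC827, 60% in H1975 and 70% in HCC2935. Called higher were 0%, 0% and 10%. Of all genes 17.2%, 23.4% and 27.2% were called lower there. In PC9 DTPs 40% were called higher and 30% lower, against 35.4% and 35.9% of all genes. In H1975, CDH1 averaged 84.5 TPM in DMSO and 2.37 TPM in DTPs. Of the 10 fibroblast markers, COL1A1 read 4.73 to 167 TPM and passed 1 TPM in all 60 libraries, LUM, COL1A2, PDGFRB and COL3A1 passed it in 21, 18, 18 and 17, PDGFRA in 2, DCN and FAP in 1 each, and THY1 and POSTN in 0. Of the blood and endothelial markers, CD68 read 9.5 to 175 TPM in all 60, CDH5, PECAM1 and PTPRC passed 1 TPM in 42, 17 and 12 libraries, and the T cell marker CD3E in 0.

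Without drug, each line had its own receptor profile. PC9 and H1975 were led by FGFR1, HCC827 by FGFR4, and HCC2935 by FGFR3 with FGFR2. FGFR1 made up 65.1% of the summed receptor TPM in PC9 DMSO and 60% in H1975 DMSO (means of 3 libraries), FGFR4 made up 53.6% in HCC827, and FGFR3 and FGFR2 made up 57.7% and 27.2% in HCC2935. The summed receptor level was closer between lines than its makeup, at means of 30.4 TPM in PC9, 35.8 in HCC827, 36.8 in H1975 and 41.6 in HCC2935.

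**Figure D1:**
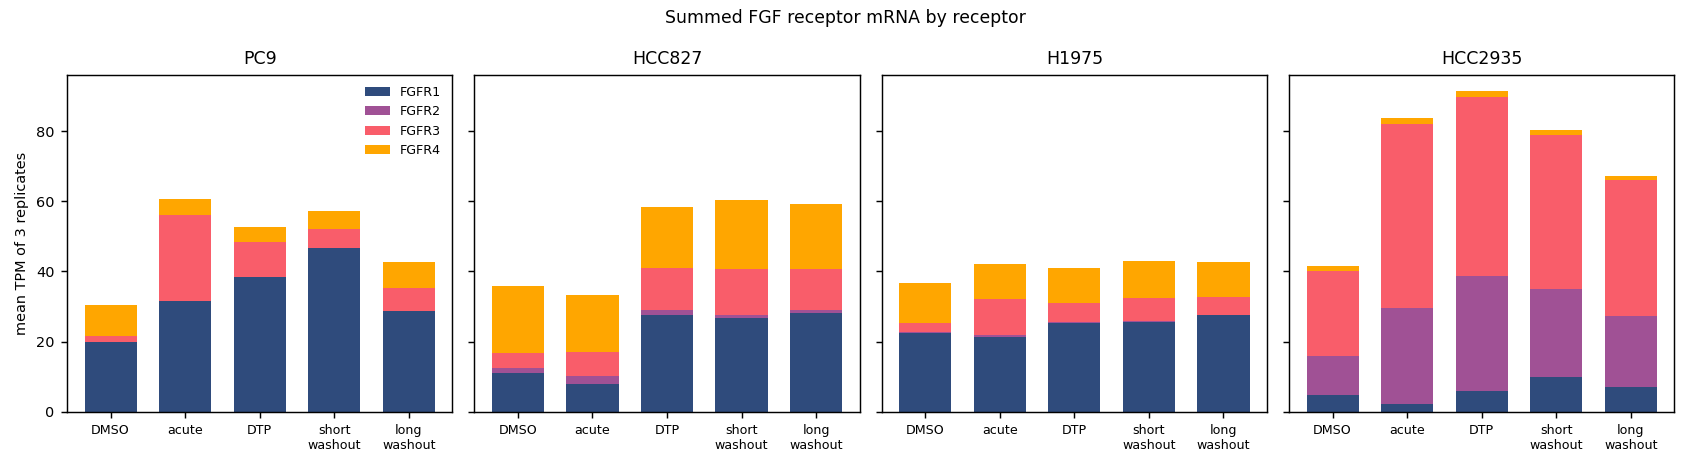
Stacked bars of the mean TPM of FGFR1, FGFR2, FGFR3 and FGFR4 (3 replicates) in the 5 arms of each line, on 1 linear axis from 0. The HCC2935 bars rise from 41.6 TPM in DMSO to 91.5 TPM in DTPs and are mostly FGFR3 and FGFR2, while FGFR1 fills most of every PC9 and H1975 bar and FGFR4 is the largest part only in HCC827 DMSO and HCC827 acute.

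FGFR2, which drives epithelial branching in the developing lung, showed the widest baseline range of the receptors. It read 12.7, 10.7 and 10.2 TPM in the HCC2935 DMSO libraries and 1.48, 1.51 and 1.60 TPM in those of HCC827. In H1975 it read 0.206, 0.130 and 0.482 TPM, and in PC9 it was listed at 0, 0.0244 and 0.0126 TPM, which is at most 2.54 estimated counts in a library. The 4 lines did not overlap for FGFR2. FGFR4 read 17.2, 20.7 and 19.4 TPM in HCC827 and 1.94, 1.44 and 1.20 TPM in HCC2935, the highest and lowest line.

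The ligands and the carrier differed between untreated lines as well. FGF2 read 6.02, 10.5 and 6.87 TPM in HCC827 DMSO and stayed at or under 0.196 TPM in all DMSO libraries of the other lines. FGFBP1 read 46.5, 45.9 and 34.6 TPM in HCC2935 and 24.6, 22.7 and 18.4 TPM in HCC827. It read 0.929, 5.55 and 3.34 TPM in PC9 and 1.88, 1.12 and 1.52 TPM in H1975, where the libraries overlapped. By median, FGF1 was lowest in PC9 (0.168, 0.911 and 0.663 TPM) and highest in H1975 (3.12, 8.14 and 3.92 TPM).

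By edgeR's quasi-likelihood test on the 12 DMSO libraries, with Benjamini-Hochberg adjusted p under 0.05 (the threshold for every call here), 34 of 42 member-by-pair differences passed. Lines differ broadly at this threshold, so these counts stand against a high background: 7 of 7 members for PC9 against HCC827 (64% of all genes tested), 4 for PC9 against H1975 (64.5%), 6 for PC9 against HCC2935 (69.1%), 6 for HCC827 against H1975 (57.3%), 5 for HCC827 against HCC2935 (66.4%) and 6 for H1975 against HCC2935 (67%). The median absolute log2 difference of the members was 1.39 to 3.26 in 5 of these pairs and 0.89 for HCC827 against H1975, against 0.59 to 0.82 over all genes. FGFR1 differed little between PC9 and H1975 (log2 difference 0.09, SE 0.18, adjusted p = 0.669). FGFBP1 in PC9 exceeded that in H1975 by 1.39 (SE 0.44, adjusted p = 0.0134), a call that was lost without PC9 DMSO replicate 2 (0.77, adjusted p = 0.123). FGFR3 in HCC827 exceeded that in H1975 by 0.78 (SE 0.31, adjusted p = 0.0474), which fell to 0.21 (adjusted p = 0.459) without HCC827 DMSO replicate 3. That call was also lost without each of the other libraries except HCC827 DMSO replicates 1 and 2, HCC2935 DMSO replicate 3 and PC9 DMSO replicate 3. The FGF2 calls for PC9 against H1975 (−2.51) and HCC2935 (−3.40) rested on few counts. DMSO libraries held at most 4.45 estimated counts of FGF2 in PC9, 17.2 in H1975 and 17.6 in HCC2935. By limma on log2(TPM + 1) neither passed (−0.08, adjusted p = 0.651, and −0.17, adjusted p = 0.324).

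**Figure D2:**
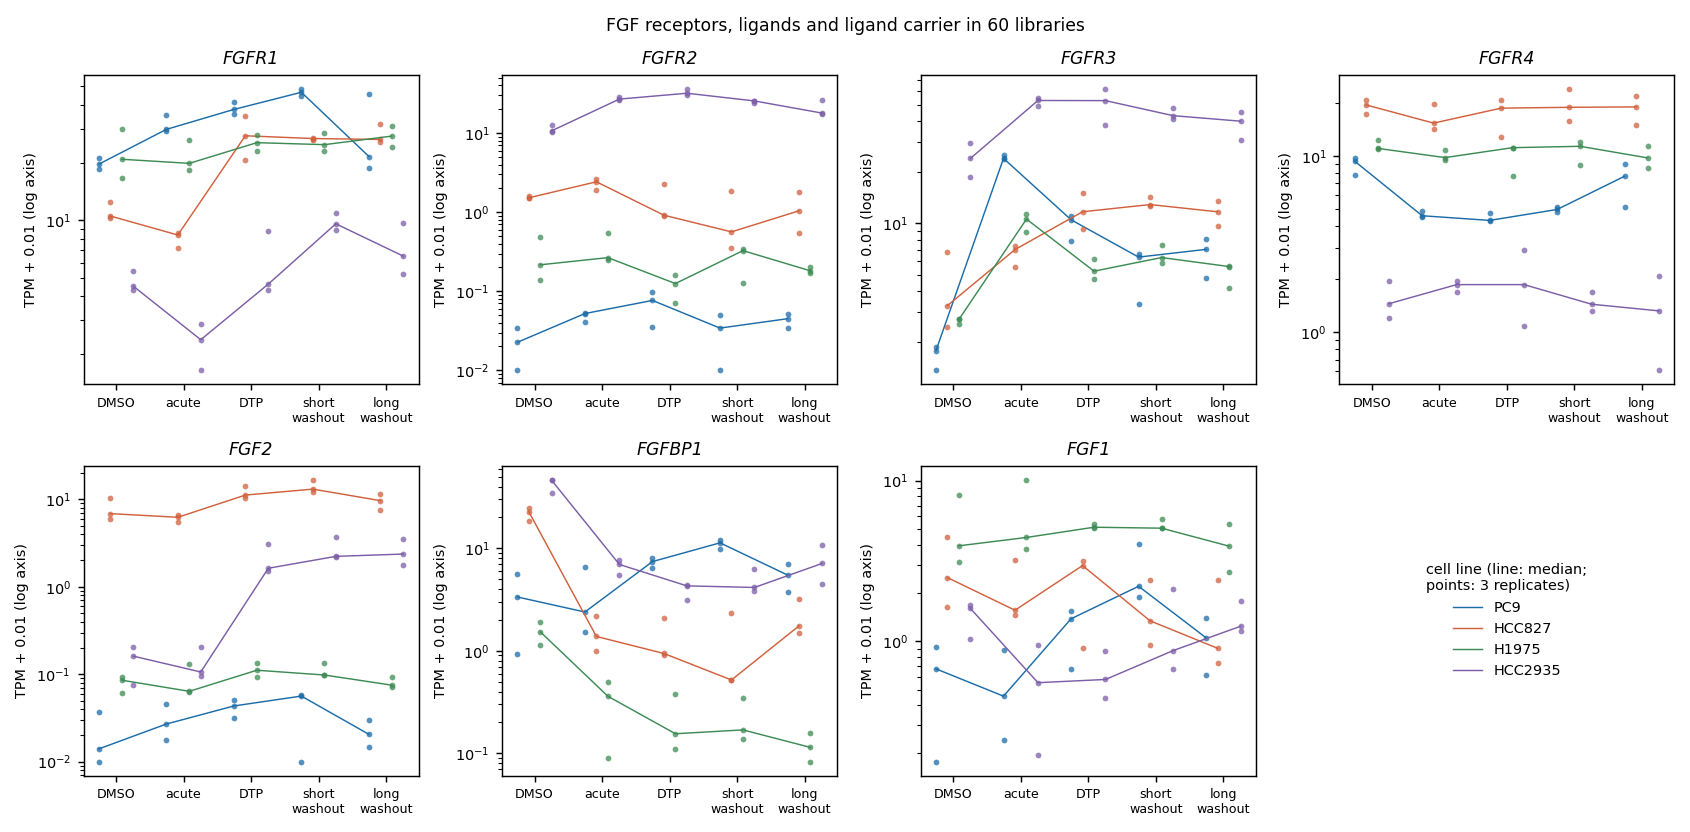
TPM + 0.01 on a log axis for each member in the 5 arms, with 3 points (libraries) per group and a line through the medians, coloured by cell line. FGFR3 is higher than in DMSO in both drug arms of PC9, H1975 and HCC2935. In HCC827 it is higher in DTPs, while the acute points overlap DMSO. FGFBP1 is lower in HCC827, H1975 and HCC2935 but not in PC9, and FGF2 rises in HCC2935 between the acute and DTP arms.

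Against DMSO, the 24 h drug treatment changed FGFR3 upward in 3 lines and FGFBP1 downward in 3 lines, with smaller and line-dependent differences in FGFR1, FGFR2 and FGFR4 and none called by edgeR in FGF1 or FGF2. Of 26 member-by-line tests 11 passed, 5 higher and 6 lower. By line, 3 of 5 tested members passed in PC9 (68.5% of all genes tested), 2 of 7 in HCC827 (42.3%), 2 of 7 in H1975 (44.9%) and 4 of 7 in HCC2935 (47.1%). The share of members called was below that of all genes in PC9, HCC827 and H1975 and above it in HCC2935, so the number of calls is not particular to the members. In DTPs 13 of 26 tests passed, 8 higher and 5 lower, with 3 of 5 members in PC9 (71.3%), 3 of 7 in HCC827 (36.7%), 2 of 7 in H1975 (45.7%) and 5 of 7 in HCC2935 (52.5%). FGFR2 and FGF2 were too low in PC9 to be tested. The acute and DTP comparisons share their DMSO libraries. With bulk RNA, fewer cells expressing a gene and less RNA per cell cannot be told apart.

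**Figure D3:**
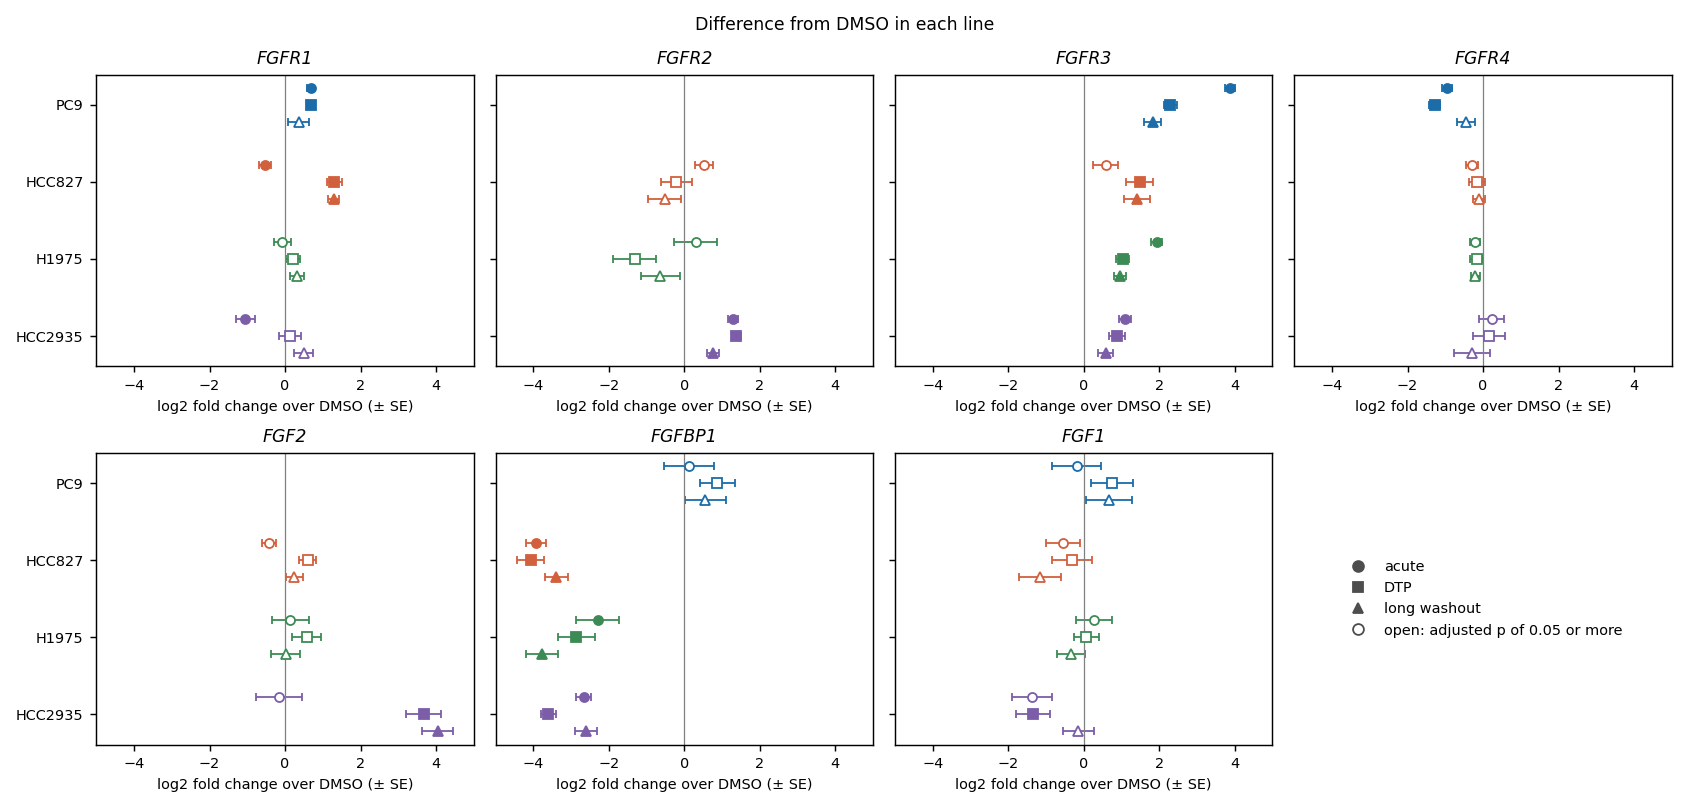
Log2 fold change over DMSO with its standard error (edgeR, 3 against 3 libraries) for each member and line, as circles for acute, squares for DTP and triangles for long washout; filled symbols had an adjusted p under 0.05. FGFR3 lies right of 0 in all 12 fits, FGFBP1 left of 0 in the 9 fits outside PC9, and FGF2 reaches 3.67 and 4.04 in HCC2935 DTPs and long washout.

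FGFR3, a receptor that is a known driver in bladder cancer, gave the largest rise of any member at 24 h. In PC9 it read 1.78, 1.86 and 1.36 TPM in DMSO and 23.8, 25.4 and 24.1 TPM with acute drug, a mean 14.7-fold higher. The groups were far apart, with a log2 fold change of 3.88 (SE 0.13, adjusted p = 1.67e-07). In PC9 DTPs it read 7.92, 11 and 10.5 TPM, still above every DMSO library (2.29, SE 0.17, adjusted p = 1.47e-06) and below every acute library (DTP against acute, fell by 1.58, SE 0.12, adjusted p = 4.2e-05).

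H1975 followed the same order for FGFR3. It read 2.72, 2.56 and 2.74 TPM in DMSO, 8.92, 11.4 and 10.6 TPM with acute drug and 5.23, 4.72 and 6.19 TPM in DTPs. These 3 groups did not overlap, and the differences were 1.93 for acute (SE 0.14, adjusted p = 8.41e-05), 1.03 for DTP against DMSO (SE 0.18, adjusted p = 0.0022) and −0.95 for DTP against acute (SE 0.17, adjusted p = 0.0056). In HCC2935, where FGFR3 started highest, it read 24.1, 29.7 and 18.8 TPM in DMSO, 49.3, 52.8 and 54.4 TPM with acute drug and 37.7, 52.7 and 62.0 TPM in DTPs. Both drug arms lay above DMSO (1.10, SE 0.16, adjusted p = 0.000351, and 0.89, SE 0.21, adjusted p = 0.00591) and overlapped each other.

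HCC827 differed in its timing for FGFR3. It read 3.28, 2.45 and 6.82 TPM in DMSO and 5.53, 7.32 and 7.01 TPM with acute drug, which overlapped and did not pass (0.58, SE 0.34, adjusted p = 0.204). Without HCC827 DMSO replicate 3, the high one, it passed (1.14, adjusted p = 0.00391). In DTPs it read 15.1, 9.28 and 11.7 TPM, above all DMSO and acute libraries (1.48 against DMSO, SE 0.36, adjusted p = 0.0125, and 0.85 against acute, SE 0.19, adjusted p = 0.013). The first of these was lost without HCC827 DMSO replicate 1 (1.32, adjusted p = 0.0536) and the second without HCC827 acute replicate 1 (0.76, adjusted p = 0.0558). The effect of acute drug on FGFR3 differed between the 4 lines in a test of the difference itself (adjusted p = 1.82e-06).

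FGFR1, a receptor found in epithelial and mesenchymal cells and often raised with mesenchymal change, lies on chr8:38400215-38468834 (−) and moved in opposite directions by line. In PC9 it read 21.1, 19.6 and 18.6 TPM in DMSO, 29.8, 29.3 and 35.6 TPM with acute drug and 35.8, 41.5 and 37.9 TPM in DTPs. Both drug arms lay above DMSO (0.68, SE 0.09, adjusted p = 0.000138, and 0.69, SE 0.08, adjusted p = 3.92e-05). DTPs lay above acute cells in TPM, but not in edgeR's fit (0.02, SE 0.09, adjusted p = 0.853). On the TPM scale the median of all genes rose by 0.19 to 0.27 more in PC9 DTPs than after TMM scaling, depending on the pseudocount and the comparison, and on that scale the FGFR1 difference from acute was 0.28 (limma on log2(TPM + 1), adjusted p = 0.0381).

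In HCC827, FGFR1 read 10.2, 10.5 and 12.4 TPM in DMSO, 8.35, 7.15 and 8.53 TPM with acute drug and 20.5, 34.9 and 27.6 TPM in DTPs. It was thus lower at 24 h and higher at 21 days, with no overlap between the 3 groups. The acute difference was −0.53 (SE 0.15, adjusted p = 0.0207) and did not pass without HCC827 DMSO replicate 3, acute replicate 2 or acute replicate 3 (−0.43 to −0.56, adjusted p = 0.0504 to 0.084). The DTP difference was 1.31 (SE 0.21, adjusted p = 0.00187), and DTPs exceeded acute cells by 1.79 (SE 0.21, adjusted p = 0.00121). HCC2935 also had less FGFR1 at 24 h, with 5.38, 4.51 and 4.29 TPM in DMSO against 2.36, 2.85 and 1.63 TPM (−1.05, SE 0.26, adjusted p = 0.00902). Its DTPs read 4.62, 4.31 and 8.74 TPM, spread around the DMSO level by 1 high library (0.13, SE 0.28, adjusted p = 0.716, and −0.26, adjusted p = 0.363, without DTP replicate 3). They exceeded acute cells by 1.18 (SE 0.33, adjusted p = 0.0165), a call that was lost without acute replicate 3 (0.96, adjusted p = 0.0559) or DTP replicate 3 (0.79, adjusted p = 0.0822). In H1975 the FGFR1 libraries of DMSO, acute and DTP overlapped, between 16.5 and 30 TPM, and no call was made. The highest value was DMSO replicate 2, without which FGFR1 passed in DTPs (0.44, adjusted p = 0.0388, against 0.21 and 0.402 with it) and after the long washout (0.55, adjusted p = 0.00713, against 0.31 and 0.2).

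FGFR2 was raised in HCC2935, the line in which it was most abundant. It read 26.9, 29 and 26.3 TPM with acute drug and 30.2, 36.5 and 31.9 TPM in DTPs, all above the highest DMSO library (12.7 TPM). The differences were 1.28 (SE 0.13, adjusted p = 4.19e-05) and 1.38 (SE 0.13, adjusted p = 3.83e-05). In HCC827 the level stayed between 0.884 and 2.58 TPM in these 3 arms, and although all acute libraries lay above DMSO there was no call (0.52 for acute, adjusted p = 0.118, and −0.21 for DTP, adjusted p = 0.727). DTPs against acute cells there passed without DTP replicate 1 (−1.34, adjusted p = 0.00894, against −0.79 and 0.167 with it). In H1975 it fell from acute to DTP (0.239, 0.256 and 0.540 TPM to 0.149, 0.115 and 0.062 TPM, −1.67, SE 0.50, adjusted p = 0.0383), at 5.68 to 14.1 estimated counts in the DTP libraries. That call was lost without acute replicates 2 or 3 or any of the DTP replicates (adjusted p = 0.0672 to 0.145). DTPs against DMSO passed there without DMSO replicate 2 (−1.66, adjusted p = 0.0406, against −1.32 and 0.0936 with it).

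FGFR4, the receptor that pairs with KLB for the hormone FGF19, fell in PC9. It read 9.76, 9.31 and 7.75 TPM in DMSO, 4.46, 4.85 and 4.56 TPM with acute drug and 4.29, 4.74 and 4.28 TPM in DTPs. Neither drug group overlapped DMSO (−0.95, SE 0.13, adjusted p = 0.000197, and −1.28, SE 0.14, adjusted p = 1.67e-05). In the other 3 lines no FGFR4 difference from DMSO passed in either arm, with log2 fold changes of −0.29 to 0.23. Its ligand FGF19, from the list of other ligands, fell in PC9 by 4.47 with acute drug (SE 0.49, adjusted p = 4.45e-05) and by 5.01 in DTPs (SE 0.47, adjusted p = 7.31e-06), from a mean of 0.692 TPM in DMSO. In HCC2935, which had the most FGF19 (9.29 TPM in DMSO), it fell with acute drug by 2.39 (SE 0.29, adjusted p = 0.000131), where the FGFR4 difference was 0.23 (adjusted p = 0.589). KLB stayed at or under 0.213 TPM in every library, so these falls are not read as changes in an FGF19 receptor complex.

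Among the ligands, FGF2 rose in the persisters of HCC2935 and had no call at 24 h in the 3 lines tested, although in HCC827 the acute difference passed without DMSO replicate 1 (−0.59, adjusted p = 0.0384, against −0.42 and 0.106 with it). It read 0.196, 0.151 and 0.0661 TPM in HCC2935 DMSO and 0.194, 0.0855 and 0.0960 TPM with acute drug, which overlapped. In DTPs it read 3.05, 1.51 and 1.62 TPM. All DTP libraries lay above all DMSO and acute libraries (3.67 against DMSO, SE 0.46, adjusted p = 0.000201, and 3.83 against acute, SE 0.46, adjusted p = 0.000119). DMSO and acute libraries held 4.93 to 17.6 estimated counts of FGF2, so the size of this difference is imprecise. In HCC827, which had the most FGF2, it read 5.48, 6.23 and 6.57 TPM with acute drug and 11.2, 10.5 and 14.2 TPM in DTPs (0.97, SE 0.15, adjusted p = 0.00319). Against HCC827 DMSO the DTP difference did not pass by edgeR (0.60, SE 0.22, adjusted p = 0.0655) and passed by DESeq2 (0.59, adjusted p = 0.0404). FGF2 stayed at or under 0.124 TPM in every H1975 library and 0.0477 TPM in every PC9 library.

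FGF1 libraries were scattered: when the 20 groups were ordered by level, all 19 neighbouring pairs overlapped. By edgeR it was called against DMSO in HCC2935 DTPs, where it read 0.435, 0.568 and 0.858 TPM against 1.67, 1.59 and 1.02 TPM (−1.35, SE 0.45, adjusted p = 0.0309). The call was lost without DMSO replicates 1 or 2 or DTP replicates 1 or 2 (−1.15 to −1.30, adjusted p = 0.09 to 0.11). The acute difference there was of similar size and did not pass (0.542, 0.185 and 0.944 TPM, −1.37, SE 0.54, adjusted p = 0.0603), but passed by limma on log2(TPM + 1) (−0.66, adjusted p = 0.0317) and by edgeR without acute replicate 3 (−1.91, adjusted p = 0.0374). In H1975, acute replicate 1 read 10.1 TPM and replicates 2 and 3 read 3.77 and 4.42 TPM, so that the acute difference was 0.28 (adjusted p = 0.666) with it and −0.33 (adjusted p = 0.541) without it.

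FGFBP1 gave the largest falls of any member. In HCC827 it read 24.6, 22.7 and 18.4 TPM in DMSO, 0.984, 1.37 and 2.18 TPM with acute drug and 0.931, 0.895 and 2.08 TPM in DTPs. The mean was 14.5-fold lower in acute cells and 16.8-fold lower in DTPs, with no overlap (−3.93, SE 0.26, adjusted p = 1.09e-05, and −4.07, SE 0.36, adjusted p = 0.00013). In HCC2935 it read 6.95, 7.65 and 5.49 TPM with acute drug and 4.29, 3.09 and 4.37 TPM in DTPs, all below the lowest DMSO library at 34.6 TPM. The differences were −2.67 (SE 0.20, adjusted p = 7.03e-06) and −3.61 (SE 0.20, adjusted p = 2.92e-06). DTPs lay below acute cells there by −0.95 (SE 0.28, adjusted p = 0.0188), which was lost without acute replicates 1 or 2 or DTP replicate 2 (adjusted p = 0.0567 to 0.0733).

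H1975 had low FGFBP1 from the start and still showed the fall. Its acute libraries read 0.350, 0.487 and 0.0793 TPM and its DTP libraries 0.145, 0.366 and 0.1 TPM, below 1.12 TPM, the lowest DMSO library (−2.30, SE 0.57, adjusted p = 0.0139, and −2.86, SE 0.50, adjusted p = 0.00204). H1975 libraries held 44.6 to 85.8 estimated counts of FGFBP1 in DMSO, 2.98 to 20 with acute drug and 4.04 to 17.2 in DTPs. The gene thus passed the filter on low counts through its DMSO libraries, and the size of the H1975 fall is imprecise. PC9 did not show the fall. PC9 DMSO libraries ranged from 0.929 to 5.55 TPM and acute libraries from 1.53 to 6.58 TPM (0.12, SE 0.66, adjusted p = 0.883). PC9 DTPs read 7.41, 8.07 and 6.37 TPM, above all 3 DMSO libraries, with a difference that did not pass (0.87, SE 0.46, adjusted p = 0.117) and passed by limma on log2(TPM + 1) (1.12, adjusted p = 0.0212). The drug effect on FGFBP1 differed between lines at 24 h (adjusted p = 0.00137) and in DTPs (adjusted p = 3e-06).

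Comparing DTPs with acute cells directly, 9 of 26 member tests passed, 5 higher and 4 lower in DTPs. The numbers were 1 of 5 in PC9 (39.8% of all genes tested), 3 of 7 in HCC827 (29.5%), 2 of 7 in H1975 (26.2%) and 3 of 7 in HCC2935 (42.4%). FGFR1 and FGF2 were higher in DTPs than in acute cells in both HCC827 and HCC2935. FGFR3 was lower in DTPs in PC9 and H1975 and higher in HCC827.

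A mesenchymal marker list had higher sums in DTPs of HCC827 and HCC2935, but not only there. In PC9 and H1975 the median sum was also highest in a DTP or washout arm. FGFR1 did not pass by edgeR for DTPs against acute cells in PC9 (0.02, adjusted p = 0.853) or H1975 (0.23, adjusted p = 0.314). The sum of 10 such markers was 148 to 185 TPM in HCC827 DMSO, 257 to 288 TPM with acute drug and 1092 to 1166 TPM in DTPs, and in HCC2935 it was 1155 to 1381, 1464 to 1707 and 5489 to 7797 TPM. The HCC2935 sums were mostly FN1, which averaged 1220, 1470 and 6110 TPM in these arms. The HCC827 sums were mostly VIM (93.7, 132 and 659 TPM) and FN1 (47.3, 110 and 334 TPM). In DTPs 7 of 9 tested markers rose and 1 fell in HCC827, 6 of 8 rose in HCC2935, 5 of 10 rose and 2 fell in PC9, and 5 of 8 rose and 1 fell in H1975. Called were 88.9%, 75%, 70% and 75% in that order, against 36.7%, 52.5%, 71.3% and 45.7% of all genes, so the PC9 count was at the background. The fibroblast marker sum was 6.58 to 9.53 TPM in HCC827 DMSO and 26.2 to 63.8 TPM in DTPs, and 27.4 to 34.2 against 45.6 to 85.5 TPM in HCC2935. The part of these lists in the FGFR1 and FGF2 values was not tested. All 12 proliferation genes fell in both drug arms of all 4 lines.

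**Figure D4:**
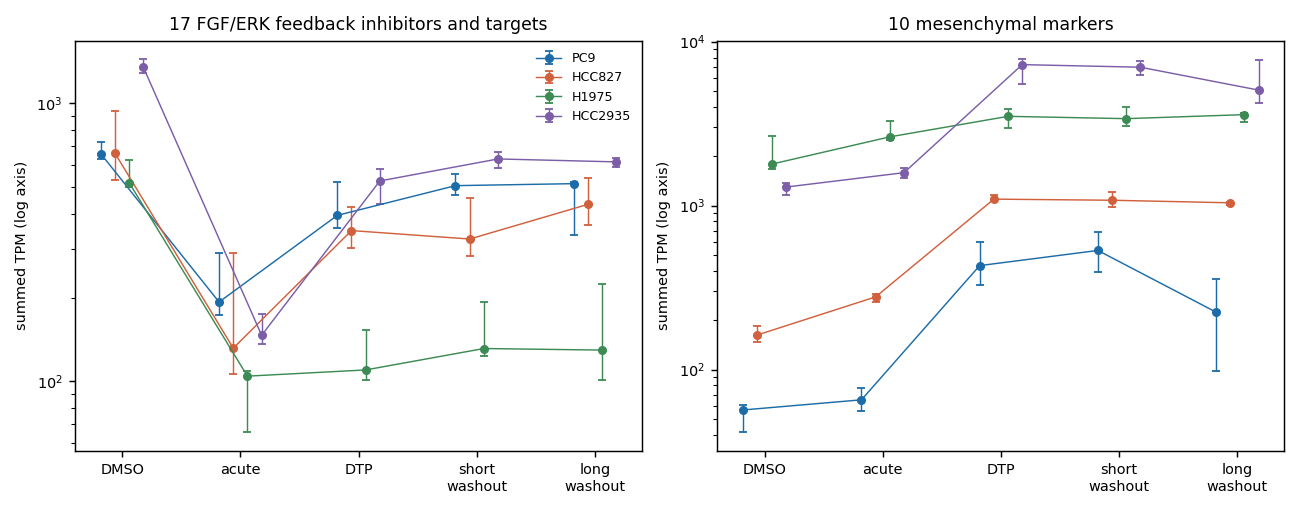
Summed TPM (log axis; point for the median library, bar from the lowest to the highest of 3) of 17 FGF/ERK feedback inhibitors and targets and of 10 mesenchymal markers, by arm and line. The median feedback sum is lowest in the acute arm in all 4 lines, while the median mesenchymal sum is highest in a DTP or washout arm in all 4.

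Removing the drug for 24 h moved few members. In PC9, where 22.2% of all genes tested passed, 3 of 5 members passed: FGFR1 rose from 35.8, 41.5 and 37.9 to 48.7, 46.6 and 44.8 TPM (0.28, SE 0.07, adjusted p = 0.0223), FGFBP1 rose to 9.79, 11.3 and 12 TPM (0.60, SE 0.14, adjusted p = 0.0177) and FGFR3 fell to 6.56, 3.37 and 6.33 TPM (−0.86, SE 0.22, adjusted p = 0.0239). These calls are fragile: without PC9 DTP replicate 3 none of the 3 passed and without short washout replicate 2 only FGFR3 did. The FGFR1 call was also lost without DTP replicate 1 or short washout replicate 1, the FGFBP1 call without short washout replicate 3 and the FGFR3 call without DTP replicate 2 (adjusted p = 0.0549 to 0.0768 over all such fits). By edgeR no member passed in HCC827, H1975 or HCC2935, where 0%, 0% and 3.52% of all genes did. In HCC2935 FGFR2 passed by DESeq2 (−0.39, adjusted p = 0.0157, against −0.38 and 0.0705 by edgeR), and FGFR1 passed without DTP replicate 3 (1.13, adjusted p = 0.014, against 0.75 and 0.141 with it). By edgeR 0 genes passed in HCC827 and in H1975, where 197 and 1950 had an unadjusted p under 0.05, and DESeq2 called 0 and 399 and limma 0 and 0. Same-numbered DTP and short washout libraries deviated together in these 2 lines, and with the replicate number as a block edgeR called 2 genes in HCC827 and 1697 in H1975 (11.6%). No member was among them, with FGFR2 (1.09, adjusted p = 0.206) and FGFR3 (0.24, adjusted p = 0.238) in H1975 the nearest.

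After the long washout, 1 of 25 member tests against DTPs passed: FGFR2 in HCC2935 fell to 25.9, 17.2 and 17.9 TPM (−0.65, SE 0.16, adjusted p = 0.046). It did not pass without any 1 of the HCC2935 libraries except long washout replicate 1 (adjusted p = 0.0836 to 0.179). The background was 17.3% in PC9, 0% in HCC827, 0.0136% in H1975 and 5.16% in HCC2935. In HCC827 edgeR called 0 genes of 14053, with 434 at an unadjusted p under 0.05, DESeq2 called 7 and limma 0. In PC9 the result for FGFR1 turned on replicate 3, which read 45.9 TPM against 21.5 and 18.8 TPM in replicates 1 and 2. With all 3 libraries the PC9 differences from DTPs were −0.34 for FGFR1 (adjusted p = 0.379), −0.47 for FGFR3 (adjusted p = 0.109) and 0.83 for FGFR4 (adjusted p = 0.0563). Without replicate 3 they were −0.78 (SE 0.10, adjusted p = 0.000469), −0.59 (SE 0.19, adjusted p = 0.0316) and 1.07 (SE 0.16, adjusted p = 0.00127).

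Several differences from DMSO were still there at the end of the long washout. Of 26 tests 10 passed, 7 higher and 3 lower: 1 of 5 in PC9 (30.6% of all genes tested), 3 of 7 in HCC827 (39.7%), 2 of 7 in H1975 (55%) and 4 of 7 in HCC2935 (39.9%). FGFR3 stayed above DMSO in all 4 lines, at 7.03, 4.78 and 8.13 TPM in PC9 (1.83, SE 0.22, adjusted p = 0.00239, and 1.70 without replicate 3), 11.7, 13.6 and 9.66 TPM in HCC827 (1.41, SE 0.35, adjusted p = 0.0111), 5.62, 5.57 and 4.19 TPM in H1975 (0.95, SE 0.16, adjusted p = 0.0013) and 39.9, 30.9 and 45.0 TPM in HCC2935 (0.58, SE 0.20, adjusted p = 0.0388). The last was lost without DMSO replicates 1 or 3 or long washout replicates 1 or 3 (0.41 to 0.58, adjusted p = 0.0795 to 0.14) and with the replicate number as a block (adjusted p = 0.0624).

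FGFBP1 stayed low after the long washout in the same 3 lines, at 3.22, 1.74 and 1.48 TPM in HCC827 (−3.39, SE 0.30, adjusted p = 5.52e-05), 0.0729, 0.104 and 0.147 TPM in H1975 (−3.77, SE 0.43, adjusted p = 0.000196) and 4.50, 10.7 and 7.10 TPM in HCC2935 (−2.60, SE 0.29, adjusted p = 0.000133). The H1975 long washout libraries held 3.01 to 6.06 estimated counts of FGFBP1, so the size of that difference is imprecise. FGFR1 remained raised in HCC827 at 26.4, 31.9 and 25.7 TPM (1.29, SE 0.15, adjusted p = 0.00022). In HCC2935, FGF2 read 2.36, 3.47 and 1.78 TPM (4.04, SE 0.42, adjusted p = 9.57e-05) and FGFR2 stayed above DMSO (0.76, SE 0.17, adjusted p = 0.00647). In PC9, FGFR4 read 7.65, 8.98 and 5.10 TPM, overlapping DMSO (−0.44, SE 0.24, adjusted p = 0.199). The difference was −0.21 (adjusted p = 0.365) without long washout replicate 3 and passed without replicate 2 (−0.68, adjusted p = 0.049). FGFR1 there differed from DMSO by 0.36 (adjusted p = 0.339) with replicate 3 and by −0.09 (adjusted p = 0.559) without it.

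Tested together over the lines, the acute effect differed for 4 of 7 members (40.5% of all genes tested), namely FGFR1, FGFR3, FGFR4 and FGFBP1, and the DTP effect for 6 of 7 (61.6%), all but FGF1 (adjusted p = 0.134). FGFR2 and FGF2 were in these fits although too low in PC9 to be tested there, so their results say little about PC9. For FGFR2 the acute test gave an adjusted p of 0.185 by edgeR, 0.151 by DESeq2, 2.32e-05 by limma on log2(TPM + 1) and 0.472 by limma on log2(TPM + 0.01). The change from DTP to long washout differed for 0 of 7 members by edgeR, DESeq2 and limma (7.34% of all genes tested by edgeR), with 1 member, FGFBP1, at an unadjusted p under 0.05 (0.0406) and adjusted p from 0.174 to 0.647. The washouts lasted 3 to 10 days depending on the line, so line and washout time cannot be told apart in that test.

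The rest of the pathway was followed in lists. Most of the feedback inhibitors and transcriptional targets of the FGF and ERK pathway fell with acute drug: 13 of 17 tested in PC9 (median log2 fold change −2.24), 13 of 17 in HCC827 (−1.47), 13 of 16 in H1975 (−2.29) and 14 of 16 in HCC2935 (−3.16), with 0, 1, 1 and 1 genes rising. Of all genes 34.1%, 22.1%, 23.7% and 25.1% fell. Over all genes the median was 0.03, 0.01, 0.03 and 0.01. ETV4, an ETS factor induced by FGF and ERK signalling, fell by 3.86, 3.56, 3.80 and 3.99 in PC9, HCC827, H1975 and HCC2935. ETV5 fell by 3.01 to 4.67 and FOSL1, an AP-1 subunit, by 3.32 to 4.87. In DTPs the falls were smaller in HCC827, where 6 of 17 fell (median −0.56, ETV4 −1.41), than in PC9 (11 of 17, −1.61), H1975 (13 of 17, −1.78) and HCC2935 (12 of 16, −1.90), where 35.9%, 23.4% and 27.2% of all genes fell against 17.2% in HCC827. No test compared these list medians. Called higher in DTPs were 5.88% of the tested genes of the list in PC9, 5.88% in HCC827, 17.6% in H1975 and 0% in HCC2935. Of all genes 35.4%, 19.4%, 22.4% and 25.3% were called higher.

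Of the co-receptors and carriers tested in DTPs, 11 of 16 rose and 0 fell in HCC827, 8 of 16 rose and 1 fell in H1975, 11 of 17 rose and 1 fell in HCC2935, and 5 of 15 rose and 6 fell in PC9. Called in either direction were 68.8%, 56.2%, 70.6% and 73.3%, against 36.7%, 45.7%, 52.5% and 71.3% of all genes, so the PC9 count was at the background. GPC4, a glypican carrying heparan sulfate, rose by 2.36 in PC9 (SE 0.08), 5.88 in HCC827 (SE 0.61), 3.05 in H1975 (SE 0.14) and 1.53 in HCC2935 (SE 0.11). HSPG2, the basement membrane proteoglycan perlecan, rose by 0.85 to 2.11 in DTPs of the 4 lines. ANOS1, a secreted protein that enhances FGFR1 signalling, rose by 3.38 to 3.63 in HCC827, H1975 and HCC2935 and was not tested in PC9. Its levels were unlike, with means of 0.0315 TPM in DMSO and 0.401 TPM in DTPs of H1975. They were 1.17 and 12.8 TPM in HCC827 and 6.38 and 78.2 TPM in HCC2935.

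Heparan sulfate enzymes were mixed, with 6 of 11 rising and 2 falling in PC9 DTPs, 5 and 3 of 12 in HCC827, 5 and 1 of 11 in H1975 and 7 and 3 of 12 in HCC2935. These are 72.7%, 66.7%, 54.5% and 83.3% called, against 71.3%, 36.7%, 45.7% and 52.5% of all genes, near the background in PC9 and H1975. HS3ST1, a heparan sulfate 3-O-sulfotransferase, fell by 1.56 to 2.82 in DTPs of all 4 lines. HS6ST2, which adds 6-O-sulfate, fell in PC9 (−1.96), HCC827 (−0.84) and HCC2935 (−3.01) and rose in H1975 (1.60). EXT1, a polymerase of the chain, rose in PC9 (1.5), HCC827 (0.66) and HCC2935 (2.20), with −0.02 in H1975 (adjusted p = 0.899).

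Of the adaptors and effectors, 12 of 14 changed in PC9 DTPs (7 higher and 5 lower), 4 of 14 in HCC827 (4 and 0), 7 of 14 in H1975 (7 and 0) and 9 of 14 in HCC2935 (5 and 4). The shares of 85.7%, 28.6%, 50% and 64.3% stood against 71.3%, 36.7%, 45.7% and 52.5% of all genes, and nothing is read from these counts about the list. PLCG1, the phospholipase that binds activated FGF receptors directly, rose in all 4 by 0.46 to 1.54. STAT3 rose by 0.39 to 1.02 in DTPs of all 4 lines, and SOS2, an exchange factor for RAS, rose in 3 by 0.53 to 1.35 and read 0.19 in HCC2935 (adjusted p = 0.149).

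Few other FGF ligands were expressed, with 3 to 6 of 16 passing the filter on low counts per comparison. FGF5 averaged 1.26 TPM in HCC827 DMSO and 5.44 TPM in DTPs, and 0.588 and 2.77 TPM in HCC2935. Of its 4 acute and DTP tests against DMSO, 2 passed. In DTPs, FGF18 rose in PC9 (3.70, SE 0.18, adjusted p = 1.11e-07) and HCC2935 (2.09, SE 0.48, adjusted p = 0.00569), and FGF9, a ligand of FGFR3 among others, rose in HCC827 (2.68, SE 0.66, adjusted p = 0.0131) and fell in HCC2935 (−2.02, SE 0.50, adjusted p = 0.00819). FGF19 rose in H1975 DTPs (1.61, SE 0.55, adjusted p = 0.0402), from a mean of only 0.124 TPM in DMSO to 0.377 TPM. FGF18 was likewise low in HCC2935, at means of 0.17 TPM in DMSO and 0.827 TPM in DTPs, against 0.818 and 12.9 TPM in PC9. Among the intracellular FGF homologous factors, which stay in the cell and bind no FGF receptor in the classical way, FGF13 rose with acute drug in HCC827 (0.55) and HCC2935 (1.61) and in HCC2935 DTPs (1.08), FGF11 fell in PC9 DTPs (−0.69) and rose in H1975 DTPs (1.46), and FGF12 rose in PC9 in both arms (0.37 and 0.60).

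EGFR itself, the target of the drug, read lower with acute drug in PC9 (−0.66, SE 0.06, adjusted p = 1.97e-05), H1975 (−0.24, SE 0.08, adjusted p = 0.0344) and HCC2935 (−0.87, SE 0.09, adjusted p = 5.98e-05). It was lower in DTPs of PC9 (−0.22), HCC827 (−0.67) and H1975 (−0.79) and higher in those of HCC2935 (0.51).

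The genes with the pattern most like each member were found by correlating log2(CPM + 1) group means, centred within each line, over the 20 groups. The points come from 4 lines whose groups share conditions, so r is a description. They were SLFN11 (r = 0.929) and FKBP14 (0.910) for FGFR1, BCL11A (0.877) and ADCY4 (0.819) for FGFR2, TNS1 (0.933) and ALPG (0.918) for FGFR3, and PCID2 (0.898) and CALB2 (0.859) for FGFR4. TOX and SYT13 (0.972 each) were most like FGF2, FAM107B (0.843) and PKN3 (0.830) most like FGFBP1, and ZNF675 (0.792) and WDR44 (0.785) most like FGF1. Among the members themselves r ranged from −0.51 (FGFR1 with FGFR2) to 0.64 (FGFR1 with FGF2).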

How the data were processed

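Groups came from the sample labels. Both deposited tables list 19712 genes by symbol: estimated counts, which the authors made and which were not raw read counts, and log2(TPM + 0.01) values deposited by the authors. Within the file, count over TPM was the product of 1 number per gene and 1 per library (9861 genes with over 50 counts in every library, largest log2 residual 6e-14), so the counts behave as length-scaled TPM. The submitters' processing notes name HISAT2 2.1.0, Salmon 0.8.2 and hg38; the annotation and strand setting are not given in the sources used here. Counts were rounded to whole numbers and tested with edgeR 4.0.16 (quasi-likelihood F-test, TMM, filterByExpr; R 4.3.3), each comparison on its own 6 libraries, with Benjamini-Hochberg adjustment over all genes tested and a threshold of 0.05; untreated lines were fitted on 12 libraries and differences between lines on 24. Alternatives were DESeq2 1.42.0, limma 3.58.1, other filters and scalings, a replicate block and each library left out. Scripts were tested on simulated data. No 2 libraries held identical values. The labels do not say that replicate numbers mark a shared batch; same-numbered deviations from the group means all correlated over 0.1 in 3 of 24 comparisons (DTP with short washout in HCC827, 0.392 to 0.678, and H1975, 0.245 to 0.586, and DMSO with acute in HCC2935, 0.115 to 0.34), which were treated as paired in the blocked fit. The members and gene lists were chosen with earlier results of these data known. Named pathway genes were the 3 of each list called in most of the acute and DTP comparisons, ties by mean absolute change; likeness used genes of at least 1 CPM.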

Additional observations from a re-analysis of the deposited data

Results flagged for a closer look

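For groups of 3 libraries no single library was tested as standing apart. The results listed here are those in which the drug effect differed between the 4 lines by a test of the difference (edgeR, 3 coefficients, 24 libraries). For acute osimertinib the adjusted p was 1.82e-06 for FGFR3 (log2 fold changes of 3.88 in PC9, 0.58 in HCC827, 1.93 in H1975 and 1.10 in HCC2935), 0.00057 for FGFR1 (0.68, −0.53, −0.07 and −1.05), 0.00137 for FGFBP1 (0.12, −3.93, −2.30 and −2.67) and 0.00349 for FGFR4 (−0.95, −0.29, −0.21 and 0.23). The FGFR4 result was lost with all libraries in one fit (adjusted p = 0.0536).

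For DTPs it was 3e-06 for FGFBP1 (0.87, −4.07, −2.86 and −3.61 in the same order), 8.71e-05 for FGF2, 0.00122 for FGFR2, 0.00719 for FGFR4 (−1.28, −0.15, −0.17 and 0.16), 0.0148 for FGFR1 (0.69, 1.31, 0.21 and 0.13) and 0.0191 for FGFR3 (2.29, 1.48, 1.03 and 0.89). In HCC827, H1975 and HCC2935 the log2 fold changes were 0.60, 0.57 and 3.67 for FGF2 and −0.21, −1.32 and 1.38 for FGFR2. PC9 libraries held at most 4.45 estimated counts of FGF2 in DMSO and 6.48 in DTPs. For FGFR2 they held at most 2.54 and 7.93. Both genes were too low to be tested in PC9 alone, so the FGF2 and FGFR2 results say little about PC9. The FGFR1 result was lost without HCC827 DTP replicate 2 (adjusted p = 0.0521) and the FGFR3 result without PC9 DMSO replicate 3 (adjusted p = 0.0602).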

How the results depend on the processing

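Of 91 calls on a member, 71 kept their direction and side of the threshold under every alternative and left-out library that gave a value. For short washout against DTP the 3 calls became 5 by DESeq2 and 1 with all libraries in one fit, and ranged from 0 to 4 with a library left out; for long washout against DTP the 1 call became 2 by DESeq2, 3 with all libraries in one fit, 0 with limma at either pseudocount, and ranged from 0 to 4 with a library left out. Requiring 10 counts in every library left 20 of 34 calls between untreated lines and 3 of 6 for the DTP effect between lines, since fewer members were tested. Replicate numbers paired the samples in 3 of 24 comparisons only (correlations of same-numbered deviations from −0.626 to 0.678, median −0.00753); in these 3 the replicate block changed no member's call. In unpaired comparisons with the block, long washout against DTP had 0 calls, FGFBP1 in PC9 DTPs passed (1.09, adjusted p = 0.0465) and FGF1 in HCC2935 DTPs did not (−1.36, adjusted p = 0.073), nor did FGFR2 for DTP against acute in H1975 (adjusted p = 0.0773) or FGFR3 in HCC827 against H1975 (adjusted p = 0.0756).

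Signs turned in uncalled values only; the cause was not tested. By limma, FGFR1 in PC9 against H1975 was −0.14 at each pseudocount and with the mean TPM filter. With 1 library left out, values ranged from −0.78 (without acute 2) to 0.73 for FGFBP1 acute in PC9. In H1975 they ranged, without acute 1 at the turned end, from −0.33 to 0.75 for FGF1 acute, −0.41 to 0.35 for FGF2 acute and −0.51 to 0.33 for FGF1 DTP against acute. They ranged from −0.26 (without DTP 3) to 0.32 for FGFR1 DTP in HCC2935, and in HCC827 from −0.27 to 0.13 (without DTP 2) for FGFR1 short washout and from −0.78 to 0.26 (without DTP 1) for FGFR2 long washout against DTP. For long washout against DMSO they ranged from −0.09 (without long washout 3) to 0.56 for FGFR1 in PC9 and, in H1975, from −0.58 to 0.16 (without DMSO 2) for FGF1 and −0.98 to 0.07 (without DMSO 3) for FGFR2. Low counts limit FGFR2 and FGF2 in PC9 and H1975 and FGFBP1 in H1975.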
